A study of Homo sapiens with 9 samples.

Results

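The genes described here are 32 genes of the NRF2 pathway, of glutathione metabolism and of antioxidant defence, chosen by name for their function. These genes were chosen with earlier results of these data known. They are 32 of the 60675 genes counted in each library. Of these, 31 were found through the symbol of their Ensembl identifier. SOD2 carries an identifier without a current symbol (ENSG00000112096), and it was matched by its position on chromosome 6. RNA-seq was performed in LNCaP:C4-2 (LNCaP:C42 in the sample labels), which was derived from the prostate cancer line LNCaP and is castrate-resistant and enzalutamide-sensitive. The 9 libraries fall into an shScramble group, a group for shMETTL3 guide 2 and a group labelled shMETTL3 guide 1, with 3 in each. shScramble is a short hairpin RNA that targets no gene, and both shMETTL3 hairpins target METTL3, the catalytic subunit of the enzyme that methylates adenosines in messenger RNA. In all 9 libraries the cells carried a doxycycline-inducible pLKO.1-puro hairpin delivered by lentivirus packaged in HEK293T cells. They were selected with puromycin, grown in phenol red-free medium with charcoal-stripped serum and given 1 μg/ml doxycycline for 6 days, although the titles of the samples name a vehicle. The stable cells were obtained by this selection, and the labels give neither the number of clones per hairpin nor whether the 3 libraries of a group came from separate cultures. The p-values therefore measure only the spread between these libraries, which may be technical.

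NRF2, encoded by NFE2L2, is a transcription factor that is held at a low level by KEAP1, an adaptor that presents it to a CUL3 ubiquitin ligase. Oxidants and electrophiles modify cysteines of KEAP1, NRF2 then accumulates, pairs with small MAF proteins and binds antioxidant response elements. Its known targets make glutathione, reduce thioredoxin, supply NADPH, conjugate and export xenobiotics and store iron. Most of this control acts on the NRF2 protein, which RNA-seq does not measure. In the prostate, loss of GSTP1 expression through methylation of its promoter is a common feature of carcinoma, and LNCaP cells are a standard example of it.

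The promoters are shown because the antioxidant response element is the sequence that most of these genes are known to share. RefSeq promoters of GRCh38.p14, each 300 bases long (250 before the start of the gene and 50 after it), were matched for 24 of the 32 genes. The genes with no promoter printed or searched here are ABCC1, ABCC3, FTH1, GSR, GSS, HMOX1, PRDX1 and SOD1. The core letters TGACNNNGC were searched on both strands. They were present in 5 of the 24 promoters (20.8%) and in 4687 of all 35116 promoters of this length (13.3%). The letters can overlap the AP-1 motif TGACTCA, as they do in GSTP1. The matches are given below on the strand of the gene, 5′ to 3′, with the matched letters in capitals. A match describes the sequence and is not evidence of binding. The distances count from the RefSeq start of the gene to the first capital letter.
GCLM, chr1:93909446-93909474, minus strand, -34 bases: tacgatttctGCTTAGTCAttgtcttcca
GPX2, chr14:64942849-64942877, minus strand, -122 bases: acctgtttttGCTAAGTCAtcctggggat
GSTP1, chr11:67583736-67583764, plus strand, -66 bases: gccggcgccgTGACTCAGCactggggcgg
PGD, chr1:10398853-10398881, plus strand, -201 bases: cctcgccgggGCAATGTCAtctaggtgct
TXNRD1, chr12:104215670-104215698, plus strand, -99 bases: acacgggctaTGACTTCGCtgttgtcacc
TXNRD1, chr12:104215761-104215789, plus strand, -8 bases: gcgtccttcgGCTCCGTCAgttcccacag

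The targeted gene was examined first. The counts of METTL3 were 922, 1010 and 753 in shScramble, 382, 415 and 349 with guide 2, and 837, 837 and 886 in the libraries labelled guide 1. Expressed as TMM CPM, the count per 1000000 counts of a library whose size is corrected by its TMM factor, this was 31.5 ± 1.59 (SD, n = 3), 16.3 ± 0.423 and 29.7 ± 0.379. All levels below are in TMM CPM. METTL3 RNA was lowered with guide 2 (log2 fold change -0.95, adjusted p = 2.97e-12) but not in the libraries labelled guide 1 (log2 fold change -0.08, 95% confidence interval -0.21 to 0.05, adjusted p = 0.251). These libraries are therefore named by their label throughout. The total counts per library lay between 21899501 and 30897639.

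Cell type markers were also counted, because they move with several results. A list of 13 prostate luminal genes summed to 2841 to 2879 TMM CPM in shScramble, 3377 to 3504 with guide 2 and 1497 to 1542 in the libraries labelled guide 1. KLK3, which encodes prostate-specific antigen, was at 13.1, 7.43 and 14.5 TMM CPM in these groups. Most of the luminal sum in shScramble came from FOLH1 (mean 1210) and STEAP2 (551). With guide 2, 8 of the 13 genes were higher than in shScramble and 5 were lower (median log2 fold change 0.10). In the libraries labelled guide 1, 1 was higher and 12 were lower (median -0.60). A list of 7 genes that HEK293T cells are known to express summed to 28.8 to 32.2 TMM CPM in shScramble, 3.51 to 5.29 with guide 2 and 312 to 327 in the libraries labelled guide 1. All 7 were lowered with guide 2, against 20.4% of all genes tested. In the libraries labelled guide 1 all 7 were raised, against 21.2%. The list was written with earlier results of these data known, so these counts are not an independent result. LIN28B was at 3.47, 0.655 and 27.3 TMM CPM, and the neurofilament gene NEFM was at 1.23, 0.0598 and 43.7. The basal markers KRT5 and TP63, the fibroblast marker DCN, the T cell marker CD3E and the endothelial marker PECAM1 had 0 counts in all 9 libraries. The other markers of these types summed to at most 0.0702 TMM CPM for basal, 46.7 for fibroblast (nearly all of it COL1A1), 0.659 for leukocyte and 3.49 for endothelial genes. The part of these marker differences in the results below was not tested. In RNA from whole cultures, fewer cells of a type and less RNA per cell cannot be told apart.

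With guide 2, the genes that rose were PRDX1, TXN, SOD2, TKT, GPX1, PGD and GSTM3. The genes that fell were GSTP1 and GPX3. In the libraries labelled guide 1, NQO1, OSGIN1, SRXN1, TXNRD1, MGST1 and CAT fell, whereas GSTP1, SOD2 and GPX3 rose. Other known NRF2 targets were not called there. Among them, HMOX1 (log2 fold change -0.13) did not pass the test. GCLC (-0.27), GCLM (-0.26), GSR (-0.48), PRDX1 (-0.47) and PGD (-0.47) were lower and passed the test (adjusted p at most 4.91e-05), but stayed within the fold limit. NFE2L2 and KEAP1 themselves were within the fold limit in both comparisons with shScramble. Both comparisons share the shScramble libraries. A gene was called raised or lowered at a Benjamini-Hochberg adjusted p under 0.05 in edgeR's quasi-likelihood F test and a change of at least 1.5-fold.

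Of the 32 genes, 30 passed the filter on low counts. With guide 2, 9 of these 30 were called (30%), against 29.3% of the 19278 genes tested. In terms of direction, 7 genes (23.3%) were raised, against 8.85% of all genes tested, and 2 genes (6.67%) were lowered, against 20.4%. The groups did not overlap in 22 of the 30, against 66.5% of all genes. The median log2 fold change was 0.20 over the 30 genes and -0.04 over all genes tested. Of the same 30 genes, 9 were called (30%) in the libraries labelled guide 1, against 37.7% of all genes. There, 3 genes (10%) were raised, against 21.2% of all genes, and 6 genes (20%) were lowered, against 16.5%. The groups did not overlap in 23 genes, against 71% of all genes. The median was -0.26 over the 30 genes and -0.02 over all. When libraries were scaled by library size alone, 5 of the 30 were called with guide 2, 3 raised and 2 lowered. Of the 19278 genes tested, 5877 were then called, 1012 raised and 4865 lowered. The median moved to 0.05 over the 30 genes and to -0.19 over all genes.

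**Figure D1:**
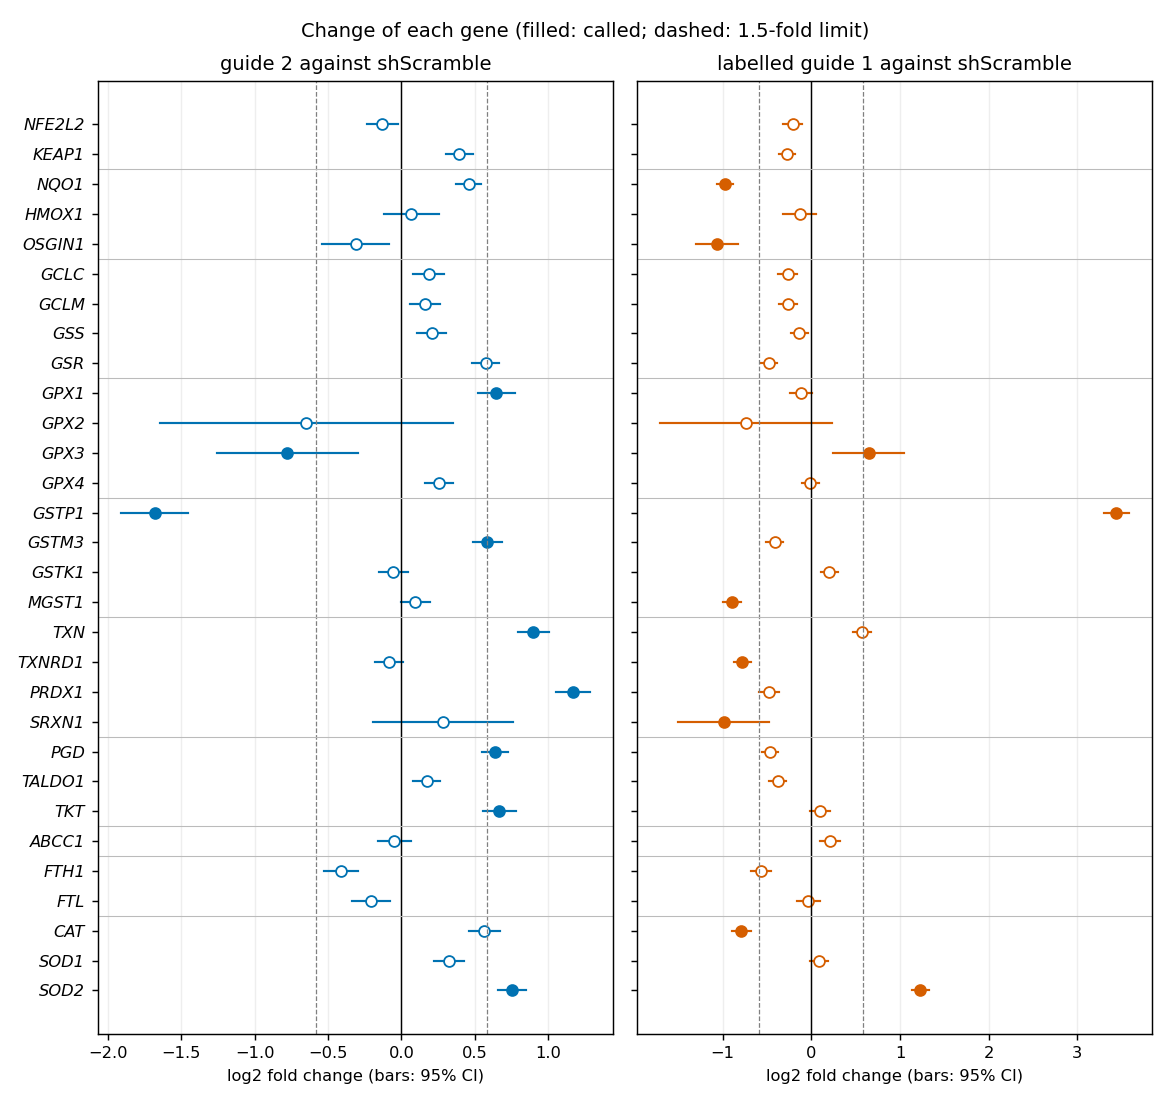
Log2 fold change of each tested gene (points, with bars for the 95% confidence interval) with guide 2 (left) and in the libraries labelled guide 1 (right), each against shScramble with n = 3 per group; the horizontal scales of the panels differ. Filled points are called and dashed lines mark 1.5-fold. GSTP1 lies at -1.68 on the left and at 3.44 on the right, farther from 0 than any other gene in each panel.

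Levels between genes are compared per kilobase of exon in shScramble. The ferritin heavy chain FTH1 was highest, at 784 ± 42.7 TMM CPM per kilobase (SD, n = 3), followed by the light chain FTL at 293 ± 16.6 and the peroxiredoxin PRDX1 at 192 ± 6.33. The superoxide dismutase SOD1 (121 ± 3.77) and thioredoxin TXN (118 ± 2.18) came next and overlapped. GPX4 (105 ± 4.79) and TALDO1 (95.3 ± 3.28) followed, and the ranges of GSS, TXNRD1 and GPX1, between 81.9 and 87.1 on average, overlapped from each to the next. NFE2L2 stood 20th, at 13.9 ± 0.582, about level with GCLM at 13.6 ± 0.447. The lowest genes tested were GPX3 (0.602 ± 0.0496) and GPX2 (0.375 ± 0.2). ABCC2 and ABCC3 lay below these at 0.0539 and 0.0161 and were not tested.

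**Figure D2:**
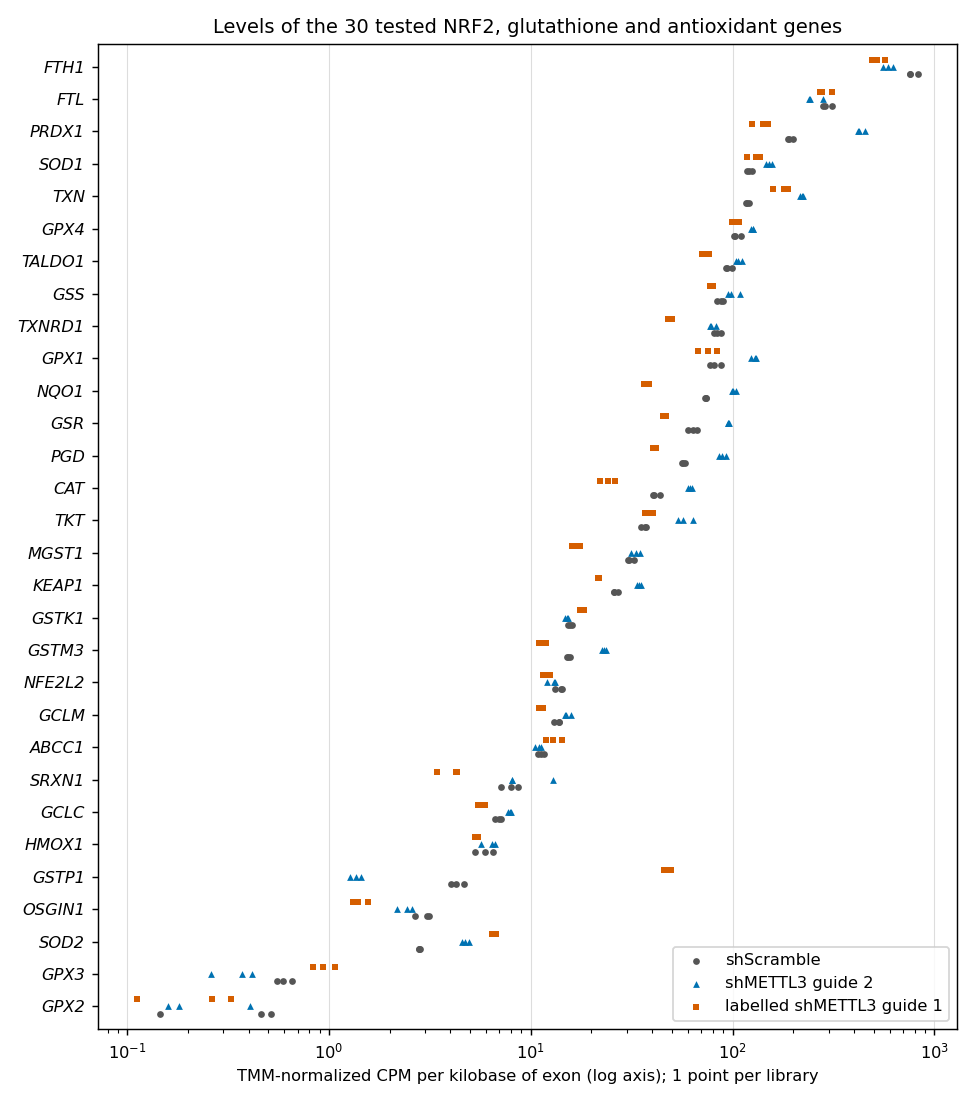
TMM CPM per kilobase of exon (horizontal log axis) of the 30 tested genes in each of the 9 libraries, ordered by their shScramble mean, with 1 point per library. FTH1 is at the top with a shScramble mean of 784, and GSTP1, ranked 26th in shScramble at 4.33, has its libraries labelled guide 1 far to the right of the others.

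The NRF2 gene NFE2L2 and the gene of its inhibitor, KEAP1, were within the fold limit against shScramble. NFE2L2 was at 79.3, 84.8 and 85.8 TMM CPM in shScramble, 71.7, 78.0 and 78.5 with guide 2, and 74.2, 69.0 and 72.5 in the libraries labelled guide 1. Its log2 fold changes were -0.13 (SE 0.051, adjusted p = 0.0286) with guide 2 and -0.21 (SE 0.0506, adjusted p = 5.69e-04) in the libraries labelled guide 1. KEAP1 was at 101, 96.9 and 97.0 TMM CPM in shScramble, 126, 129 and 133 with guide 2, and 81.3, 82.1 and 80.9 in the libraries labelled guide 1. The 3 groups of KEAP1 did not overlap, but both differences from shScramble were within the fold limit, at 0.39 and -0.27 on the log2 scale (adjusted p = 1.61e-08 and 5.10e-06). Compared directly, KEAP1 was 1.59-fold higher with guide 2 than in the libraries labelled guide 1 (adjusted p = 1.34e-13), a difference that was 0.53 on the log2 scale, under the limit, when scaled by library size alone. In NFE2L2, 20.9% of the exon bases are shared with other genes, so some of its reads could be assigned elsewhere.

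Of the 3 target genes often used to read out NRF2 activity, NQO1 and OSGIN1 fell in the libraries labelled guide 1, and HMOX1 passed no test. NQO1 encodes a quinone reductase and was at 238, 241 and 240 TMM CPM in shScramble, 326, 323 and 338 with guide 2, and 125, 119 and 122 in the libraries labelled guide 1. No group of NQO1 overlapped another, and the SD in shScramble was only 1.24. NQO1 fell by 0.97 on the log2 scale in the libraries labelled guide 1 (SE 0.0434, adjusted p = 2.51e-17), to 0.51 of the control. With guide 2 its log2 fold change was 0.46 (SE 0.0425, adjusted p = 3.95e-10), within the fold limit. OSGIN1, an oxidative stress-induced growth inhibitor, was at 10.9, 10.6 and 9.24 TMM CPM in shScramble, 7.499, 8.89 and 8.48 with guide 2, and 5.41, 4.54 and 4.85 in the libraries labelled guide 1. It fell in the latter (log2 fold change -1.06, SE 0.116, adjusted p = 4.41e-09) and was -0.31 with guide 2, within the limit. HMOX1, the inducible heme oxygenase, overlapped shScramble in both other groups, with means of 14.2 ± 1.48, 15.02 ± 1.24 and 13.1 ± 0.281 TMM CPM (SD, n = 3). Its log2 fold changes of 0.07 with guide 2 (95% confidence interval -0.12 to 0.25) and -0.13 in the libraries labelled guide 1 (-0.32 to 0.05) did not pass the test. The guide 2 libraries of HMOX1 were all above the libraries labelled guide 1, but their direct difference of 0.20 did not pass the test either (adjusted p = 0.0523). NQO1 and OSGIN1 share 17.7% and 13.9% of their exon bases with genes that had few or no counts.

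The enzymes that make and recycle glutathione were not called in either comparison with shScramble. The groups did not overlap for any of the 4 genes. This held for 66.5% of all genes tested with guide 2 and for 71% in the libraries labelled guide 1. Means in shScramble, with guide 2 and in the libraries labelled guide 1 were 58.3, 66.3 and 48.4 TMM CPM for GCLC, the catalytic subunit of glutamate-cysteine ligase. They were 73.6, 82.2 and 61.4 for its modifier subunit GCLM, the gene whose promoter match lies nearest to the start apart from TXNRD1. Glutathione synthetase GSS had means of 167, 193 and 152. In each gene the guide 2 libraries were the highest and the libraries labelled guide 1 the lowest. The log2 fold changes of these 3 genes lay between 0.16 and 0.21 with guide 2 and between -0.27 and -0.13 in the libraries labelled guide 1. GSR, the reductase that regenerates glutathione with NADPH, was at 207, 216 and 196 TMM CPM in shScramble, 306, 310 and 306 with guide 2, and 151, 147 and 147 in the libraries labelled guide 1. Its change of 0.57 with guide 2 (SE 0.0445, adjusted p = 1.16e-11) was just under the 1.5-fold limit, and it passed the limit without shScramble replicate 2 (0.61), with DESeq2 (0.60) and with no filter on low counts (0.60). Compared directly, GSR was 2.07-fold higher with guide 2 than in the libraries labelled guide 1 (adjusted p = 5.62e-18).

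Glutathione peroxidases reduce hydrogen peroxide or lipid peroxides with glutathione. GPX1, the main cytosolic enzyme, was at 110, 116 and 125 TMM CPM in shScramble, 185, 187 and 176 with guide 2, and 119, 96.3 and 108 in the libraries labelled guide 1. It rose with guide 2 (log2 fold change 0.65, SE 0.061, adjusted p = 8.79e-09), with each of these libraries above every other library. GPX1 in the libraries labelled guide 1 overlapped shScramble (-0.12, adjusted p = 0.0955). GPX4, which acts on lipid hydroperoxides and protects from ferroptosis, was at 212 ± 9.68, 253 ± 3.14 and 210 ± 8.29 TMM CPM. Its log2 fold changes of 0.26 (adjusted p = 2.47e-05) and -0.01 (adjusted p = 0.831) were within the limit. The secreted enzyme GPX3 was low, with 64, 56 and 43 counts in shScramble, 19, 33 and 26 counts with guide 2, and 84, 73 and 101 counts in the libraries labelled guide 1. GPX3 fell with guide 2 (log2 fold change -0.78, SE 0.234, adjusted p = 0.00546) and rose in the libraries labelled guide 1 (0.65, SE 0.195, adjusted p = 0.00458). GPX2 had only 5 to 24 counts per library, and its changes of -0.65 and -0.74 had confidence intervals from -1.65 to 0.35 and from -1.70 to 0.23. The rise of GPX3 was under the limit without shScramble replicate 2 (0.58) or without guide 1 replicate 3 (0.55), the change of GPX2 in the libraries labelled guide 1 passed the test without shScramble replicate 3 (-1.07), and GPX1 was under the limit (0.50) with library size alone.

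GSTP1, the pi-class transferase that conjugates glutathione to electrophiles, had the largest change of the 30 tested genes in either direction. It was at 8.96, 8.16 and 7.75 TMM CPM in shScramble, 2.60, 2.43 and 2.77 with guide 2, and 88.3, 87.9 and 95.4 in the libraries labelled guide 1. In raw counts this was 277, 260 and 177, then 60, 61 and 61, then 2514, 2441 and 2852. The 3 groups were far apart. GSTP1 was 0.312 of the control with guide 2 (log2 fold change -1.68, SE 0.112, adjusted p = 4.89e-13) and 10.9-fold higher in the libraries labelled guide 1 (3.44, SE 0.0698, adjusted p = 7.504e-25). Compared directly, the groups differed by -5.12 on the log2 scale (SE 0.0866, adjusted p = 6.80e-27). Over the same libraries the summed HEK293T list was 28.8 to 32.2, 3.51 to 5.29 and 312 to 327 TMM CPM, in the same order of groups as GSTP1, and the summed luminal list was in the opposite order. The part of those lists in the GSTP1 difference was not tested. With only 3 groups the libraries form 3 clusters, and no correlation is given.

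**Figure D3:**
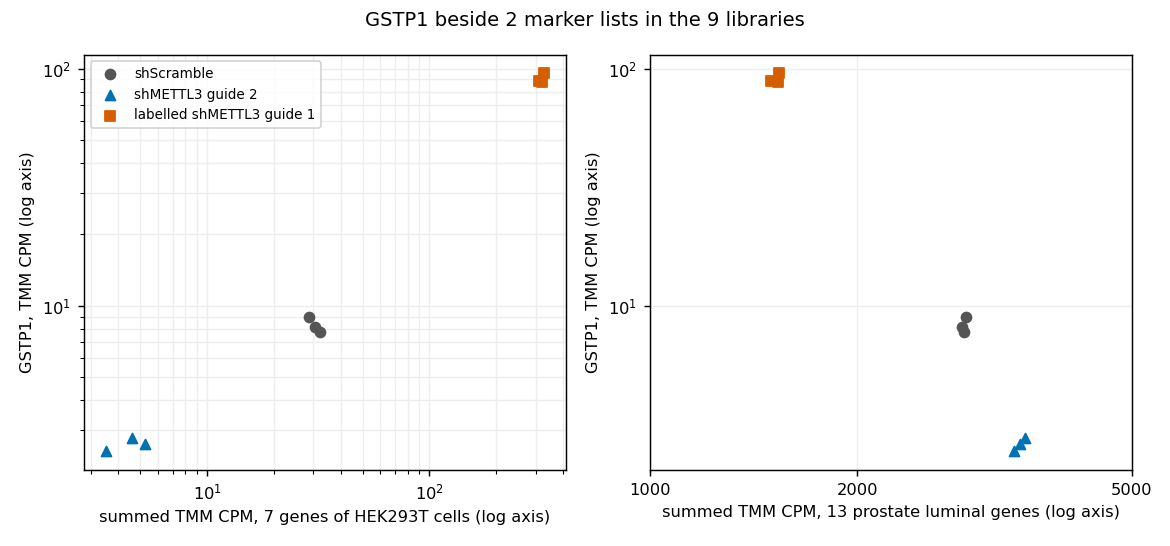
GSTP1 level (vertical log axis, TMM CPM) against the summed level of 7 genes of HEK293T cells (left) and of 13 prostate luminal genes (right; both horizontal axes are log axes), with 1 point for each of the 9 libraries. The 3 groups form separate clusters, with the libraries labelled guide 1 highest for GSTP1 and for the HEK293T list and lowest for the luminal list.

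The GSTP1 promoter is printed because it is the methylated region for which this gene is known in prostate cancer. Methylation was not measured here. It lies on the plus strand at chr11:67583562-67583861 of GRCh38.p14, holds 36 CpG dinucleotides, and its antioxidant response element match is in capitals. The median was 29 CpG over the 24 matched promoters and 14 over all RefSeq promoters of this length.
GSTP1 promoter: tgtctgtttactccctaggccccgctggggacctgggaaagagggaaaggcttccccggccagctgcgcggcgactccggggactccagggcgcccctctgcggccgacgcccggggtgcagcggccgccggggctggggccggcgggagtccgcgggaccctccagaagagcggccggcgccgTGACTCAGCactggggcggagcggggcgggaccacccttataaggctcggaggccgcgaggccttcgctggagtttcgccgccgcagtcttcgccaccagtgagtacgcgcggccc

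Of the 3 other transferases among the 32 genes, GSTM3 and MGST1 were lowest in the libraries labelled guide 1, and GSTK1 was highest there. GSTM3, a mu-class transferase, was at 72.9, 71.9 and 74.3 TMM CPM in shScramble, 112, 107 and 109 with guide 2, and 55.1, 52.4 and 56.9 in the libraries labelled guide 1. Its rise with guide 2 was the called change nearest to the limit (log2 fold change 0.59, SE 0.0472, adjusted p = 2.52e-11), and it was under the limit without shScramble replicate 2 (0.57), without guide 2 replicate 1 (0.57), in a fit of 6 libraries only (0.57), with a mean of at least 1 CPM (0.54) and with library size alone (0.44). In the libraries labelled guide 1 the change of GSTM3 was -0.41, within the limit. MGST1, a membrane-bound transferase and peroxidase, was at 225, 228 and 242 TMM CPM in shScramble, 234, 249 and 260 with guide 2, and 131, 120 and 125 in the libraries labelled guide 1. MGST1 fell in the libraries labelled guide 1 (log2 fold change -0.89, SE 0.0489, adjusted p = 2.44e-15), whereas guide 2 and shScramble overlapped (0.09, adjusted p = 0.0881). The mitochondrial and peroxisomal GSTK1 had means of 63.7, 66.2 and 76.2 TMM CPM with guide 2, in shScramble and in the libraries labelled guide 1, and was within the limit in both comparisons, at -0.05 and 0.20.

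The thioredoxin system held the largest rises of the 30 genes with guide 2. Peroxiredoxin PRDX1, which reduces hydrogen peroxide with thioredoxin, was at 285, 289 and 304 TMM CPM in shScramble, 647, 637 and 690 with guide 2, and 228, 190 and 214 in the libraries labelled guide 1. It rose 2.25-fold with guide 2 (log2 fold change 1.17, SE 0.0552, adjusted p = 9.80e-16) and was -0.47 in the libraries labelled guide 1, within the limit. PRDX1 shares 24.9% of its exon bases with MMACHC on the opposite strand, which had 582 to 783 counts in shScramble and 1361 to 1568 with guide 2, beside 6927 to 15987 counts of PRDX1 in these libraries. Thioredoxin TXN was at 138, 134 and 133 TMM CPM in shScramble, 247, 255 and 253 with guide 2, and 216, 181 and 206 in the libraries labelled guide 1. TXN rose 1.86-fold with guide 2 (log2 fold change 0.90, SE 0.0517, adjusted p = 2.71e-14). Its change in the libraries labelled guide 1 was 0.57 (adjusted p = 1.03e-10), just under the limit, and passed it without guide 1 replicate 2 (0.64) and with DESeq2 (0.59).

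Both partners that keep these proteins active were lowered in the libraries labelled guide 1. Thioredoxin reductase TXNRD1, whose promoter holds 2 matches of the response element core, was at 564, 542 and 585 TMM CPM in shScramble, 518, 523 and 557 with guide 2, and 322, 337 and 326 in the libraries labelled guide 1. Its log2 fold change there was -0.78 (SE 0.047, adjusted p = 1.98e-14), while guide 2 overlapped shScramble (-0.08, adjusted p = 0.13). Sulfiredoxin SRXN1, which repairs overoxidized peroxiredoxins, was at 21.5, 23.4 and 19.2 TMM CPM in shScramble, 34.9, 21.7 and 21.8 with guide 2, and 11.7, 9.22 and 11.5 in the libraries labelled guide 1. Guide 2 replicate 1 stood apart from the other libraries of its group. SRXN1 fell in the libraries labelled guide 1 (log2 fold change -0.99, SE 0.217, adjusted p = 0.00465) and had a change of 0.29 with guide 2 (95% confidence interval -0.19 to 0.76). It shares 85% of its exon bases with a further gene on the same strand that had 6 to 22 counts per library, so its counts are uncertain.

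**Figure D4:**
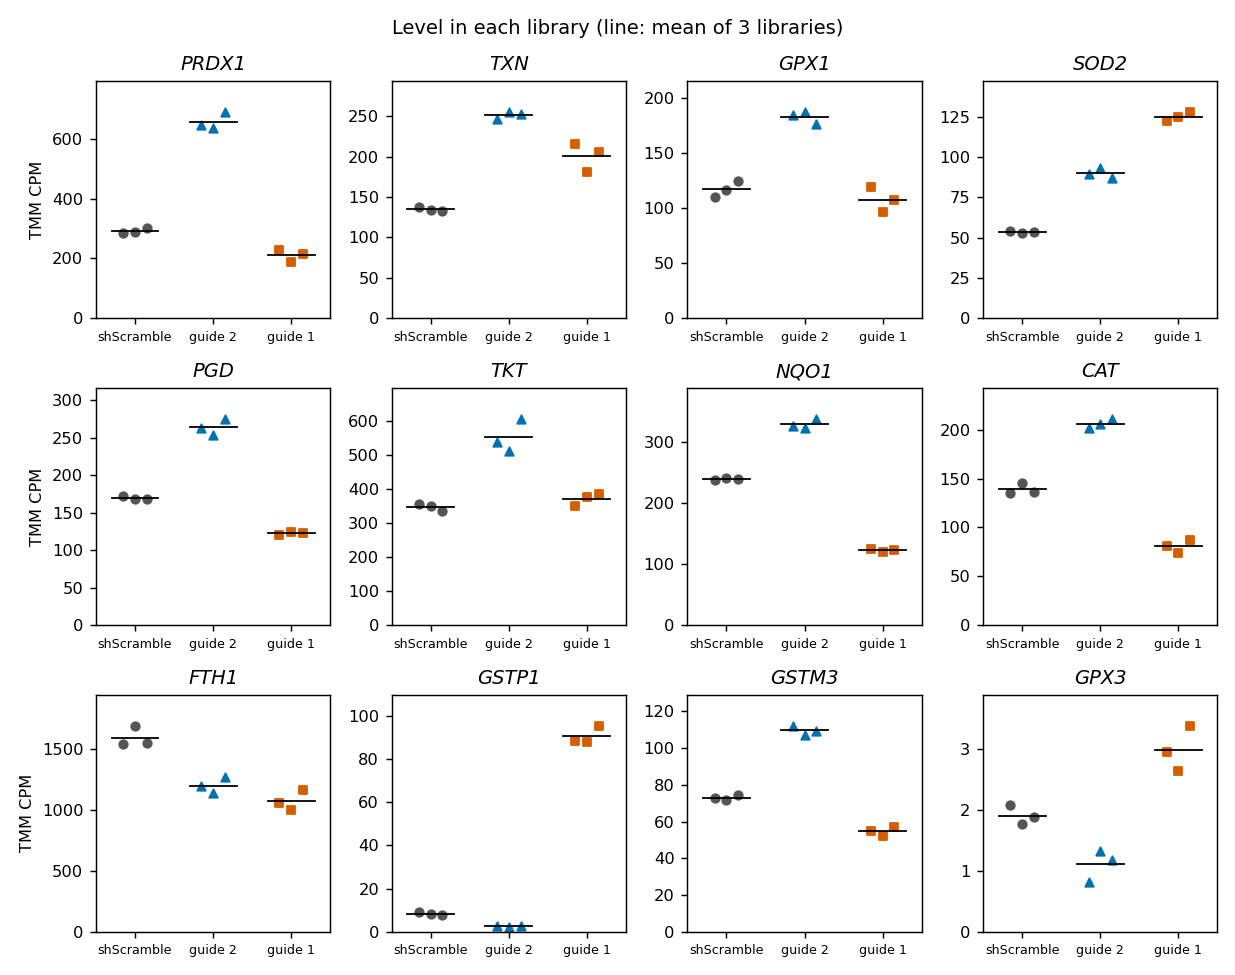
TMM CPM (vertical axes from 0) of 12 genes in each of the 9 libraries, with a line at the mean of 3 libraries. The group marked guide 1 holds the libraries labelled guide 1. PRDX1, GPX1, PGD, TKT and CAT are highest with guide 2, and SOD2 is lowest in shScramble (mean 53.4) and highest in the libraries labelled guide 1 (mean 125).

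The pentose phosphate pathway supplies the NADPH used by both reductases. PGD, its second dehydrogenase, was at 172, 168 and 168 TMM CPM in shScramble, 263, 253 and 275 with guide 2, and 120, 124 and 123 in the libraries labelled guide 1. PGD rose with guide 2 (log2 fold change 0.64, SE 0.0439, adjusted p = 9.62e-13) and was -0.47 in the libraries labelled guide 1, within the limit. Transketolase TKT, of the non-oxidative branch, was at 356, 350 and 336 TMM CPM in shScramble, 537, 511 and 606 with guide 2, and 350, 376 and 386 in the libraries labelled guide 1. TKT rose with guide 2 (0.67, SE 0.0547, adjusted p = 5.28e-11), and its libraries labelled guide 1 overlapped shScramble (0.09, adjusted p = 0.128). Transaldolase TALDO1, of the same branch, had log2 fold changes of 0.17 and -0.38, both within the limit. With library size alone, PGD (0.49) and TKT (0.52) were under the limit.

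The ATP-dependent exporters of glutathione conjugates were represented by ABCC1. It was at 85.3 ± 3.24 TMM CPM in shScramble, 82.5 ± 2.54 with guide 2 and 98.7 ± 8.63 in the libraries labelled guide 1 (SD, n = 3), with log2 fold changes of -0.05 and 0.21. ABCC2 had 7 to 11 counts in shScramble, 2 to 5 with guide 2 and 10 to 19 in the libraries labelled guide 1. ABCC3 had 2 to 7 counts in shScramble and with guide 2, and 2 to 6 in the libraries labelled guide 1. At this depth no difference in ABCC3 was detectable.

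Ferritin, the iron store built of FTH1 and FTL, did not pass the fold limit. FTH1 was at 1538, 1692 and 1546 TMM CPM in shScramble, 1195, 1136 and 1266 with guide 2, and 1056, 1002 and 1160 in the libraries labelled guide 1. Every shScramble library was above every other library. The log2 fold changes of FTH1 were -0.41 with guide 2 (SE 0.0568, adjusted p = 5.79e-07) and -0.57 in the libraries labelled guide 1 (SE 0.0569, adjusted p = 8.73e-10). The latter passed the limit without shScramble replicate 1 (-0.60), shScramble replicate 3 (-0.60) or guide 1 replicate 3 (-0.63). FTL overlapped between the groups, with log2 fold changes of -0.21 and -0.04. FTH1 shares 62.4% of its exon bases with BEST1 on the opposite strand, which had 1905 to 2658 counts in shScramble, 813 to 982 with guide 2 and 1251 to 1361 in the libraries labelled guide 1, against 27557 to 53875 counts of FTH1.

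Catalase and the superoxide dismutases gave different patterns. CAT, the peroxisomal enzyme that splits hydrogen peroxide, was at 136, 146 and 137 TMM CPM in shScramble, 202, 206 and 212 with guide 2, and 81.2, 73.4 and 87.4 in the libraries labelled guide 1. It fell in the libraries labelled guide 1 (log2 fold change -0.79, SE 0.0529, adjusted p = 2.04e-13). Its change with guide 2 was 0.56 (SE 0.0516, adjusted p = 2.96e-10), just under the limit, and passed it without shScramble replicate 2 (0.60), with DESeq2 (0.59) and with no filter (0.59). The cytosolic SOD1 was at 245 ± 7.6, 306 ± 10.2 and 260 ± 18.9 TMM CPM, with log2 fold changes of 0.32 and 0.09 within the limit. The mitochondrial manganese enzyme SOD2 was at 53.9, 52.9 and 53.4 TMM CPM in shScramble, 89.6, 93.4 and 87.2 with guide 2, and 123, 125 and 128 in the libraries labelled guide 1. The SOD2 groups did not overlap. It rose 1.69-fold with guide 2 (log2 fold change 0.75, SE 0.0476, adjusted p = 1.73e-13) and 2.35-fold in the libraries labelled guide 1 (1.23, SE 0.0468, adjusted p = 6.91e-19). SOD2 is a gene of 18985 exon bases in the files, 12% of them shared with WTAP and ACAT2 on the opposite strand. In shScramble, with guide 2 and in the libraries labelled guide 1, WTAP had 1816 to 2504, 2059 to 2334 and 2480 to 2861 counts. ACAT2 had 485 to 671, 914 to 1049 and 857 to 947, beside 1218 to 1684, 1923 to 2342 and 3469 to 3829 of SOD2. The part of shared reads in the SOD2 changes was not tested.

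The guide 2 libraries were also compared directly with the libraries labelled guide 1. The hairpin and the other differences between these groups of libraries cannot be told apart. Of the 30 genes, 14 were called (46.7%), against 47.3% of all genes tested. There were 12 genes higher with guide 2 (40%), against 19.1% of all genes, and 2 lower (6.67%), against 28.2%. The 12 were KEAP1, NQO1, OSGIN1, GSR, GPX1, GSTM3, MGST1, TXNRD1, PRDX1, SRXN1, PGD and CAT, and the 2 were GPX3 and GSTP1. The groups did not overlap in 26 of the 30, against 75.8% of all genes. The largest positive differences were 1.64 for PRDX1 (SE 0.056, adjusted p = 9.59e-20), 1.43 for NQO1 (SE 0.0437, adjusted p = 2.58e-21) and 1.35 for CAT (SE 0.053, adjusted p = 7.53e-19) on the log2 scale. TKT was just under the limit at 0.57 and passed it without guide 2 replicate 1 (0.60) or 2 (0.63), or without guide 1 replicate 2 (0.59) or 3 (0.60). The median difference was 0.44 over the 30 genes and -0.06 over all genes. The guide 2 libraries were below the others for the HEK293T list and above them for the luminal list, as given above, and the part of those lists was not tested.

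A wider set of 128 genes around the same pathway was read by counts alone. It holds 6 lists, written by hand, and 122 of its genes were tested. With guide 2, 26 of these rose (21.3%), against 8.85% of all genes tested, and 15 fell (12.3%), against 20.4%. There were 27 that rose (22.1%) and 23 that fell (18.9%) in the libraries labelled guide 1, against 21.2% and 16.5% of all genes. The percentages in the next paragraphs are to be read against these shares of all genes.

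Among 22 regulators and partners of NRF2, 4 rose (18.2%) and 3 fell (13.6%) with guide 2, and 5 rose (22.7%) and 4 fell (18.2%) in the libraries labelled guide 1. AMER1, a KEAP1 binding partner also known from WNT signalling, had the largest rise with guide 2 among genes of at least 5 TMM CPM (log2 fold change 1.11, from 15.4 ± 1.08 to 33.3 ± 0.82 TMM CPM, adjusted p = 5.03e-13). SQSTM1, the autophagy receptor p62 that sequesters KEAP1 and is itself an NRF2 target, had the largest fall at this level in both comparisons, from 574 ± 41.2 to 308 ± 10.7 with guide 2 (-0.90, adjusted p = 2.23e-14) and to 274 ± 10.8 in the libraries labelled guide 1 (-1.06, adjusted p = 1.35e-16). BACH2, a transcriptional repressor known from B cells, rose from 1.13 ± 0.164 to 9.33 ± 0.663 TMM CPM in the libraries labelled guide 1 (3.06, adjusted p = 3.11e-15) and, below that level, fell with guide 2 (-2.79, adjusted p = 2.31e-07), where it had 2 to 5 counts per library.

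Among 29 tested genes of glutathione supply and use, 8 rose (27.6%) and 2 fell (6.9%) with guide 2, and 9 rose (31%) and 2 fell (6.9%) in the libraries labelled guide 1. The leading rise at 5 TMM CPM or more with guide 2 was GGCT, which cleaves gamma-glutamyl amino acids (log2 fold change 0.98, from 41.6 ± 1.33 to 82.4 ± 1.93 TMM CPM, adjusted p = 4.90e-14). At this level the leading rise in the libraries labelled guide 1 was the transferase GSTM2 (3.51, from 1.36 ± 0.276 to 15.6 ± 1.13, adjusted p = 1.27e-17), and the leading fall was 5-oxoprolinase OPLAH (-0.78, from 30.9 ± 3.43 to 18.0 ± 1.85, adjusted p = 7.26e-09). Of the other transferases, named after their values were seen, GSTO2 fell with guide 2 (-0.80) and rose in the libraries labelled guide 1 (0.84). GSTA1, GSTA2 and MGST2 rose with guide 2 (0.78, 1.52 and 0.70). They were lower in the libraries labelled guide 1 (-0.46, -0.59 and -0.34), where none was called. With guide 2, GSTO1 was just under the limit (0.58, adjusted p = 7.41e-10) and GSTA4 was within it (0.27). GSTA4 (1.02) and GSTO1 (0.61) were called only in the libraries labelled guide 1, where they rose. GSTM4, at 6 to 9 counts in shScramble, was also called raised there (3.82). It passed the filter on low counts only through those libraries, so its call there is not independent of the filter. With guide 2, where it had 0 to 4 counts per library, GSTM4 was called lowered (-1.85). Both calls are included in the counts of this list. GSTM2 and GSTM4 are closely related in sequence to other mu-class genes, and reads that match several of them could be assigned to either.

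Among 22 other thiol and superoxide antioxidants, 4 rose (18.2%) and 4 fell (18.2%) in each comparison with shScramble. The stress-induced SESN3 rose with guide 2 (log2 fold change 1.02, from 128 ± 7.65 to 259 ± 1.16 TMM CPM, adjusted p = 1.02e-15). The thioredoxin inhibitor TXNIP had the largest fall at 5 TMM CPM or more in both, from 577 ± 40 to 256 ± 6.42 with guide 2 (-1.17, adjusted p = 6.22e-16) and to 314 ± 23 in the libraries labelled guide 1 (-0.88, adjusted p = 5.19e-14). TXNIP was lower and TXN was higher than in shScramble in both comparisons. In the libraries labelled guide 1 the change of TXN (0.57) was just under the limit. MSRB3, a methionine sulfoxide reductase, rose in the libraries labelled guide 1 (0.94, adjusted p = 2.90e-10).

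Among 17 tested genes of NADPH supply, 3 rose (17.6%) and 2 fell (11.8%) with guide 2, and 6 rose (35.3%) and 3 fell (17.6%) in the libraries labelled guide 1. These counts include ALDH1L1, at 10 to 16 counts in shScramble, called lowered with guide 2 (-1.5) and raised in the libraries labelled guide 1 (1.36). It passed the filter on low counts only through the libraries labelled guide 1, so its calls are not independent of the filter. Mitochondrial isocitrate dehydrogenase IDH2 rose with guide 2 (log2 fold change 0.96, from 112 ± 6.33 to 217 ± 5.95 TMM CPM, adjusted p = 3.50e-15). The cytosolic enzyme IDH1 fell in the libraries labelled guide 1 (-0.84, from 1026 ± 45.7 to 571 ± 30.5, adjusted p = 1.68e-14). The mitochondrial folate enzyme ALDH1L2 rose from 6.69 ± 0.712 to 196 ± 2.55 (4.86, adjusted p = 1.43e-28) in those libraries. It fell with guide 2 (-2.77), so its groups lay in the same order as those of GSTP1 and the HEK293T list.

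Among 20 tested detoxifying oxidoreductases and exporters, 4 rose (20%) and 4 fell (20%) with guide 2, and 2 rose (10%) and 7 fell (35%) in the libraries labelled guide 1. Carbonyl reductase CBR1 rose with guide 2 (log2 fold change 0.93, from 43.6 ± 2.23 to 83.3 ± 2.48 TMM CPM, adjusted p = 1.13e-13). Aldose reductase AKR1B1 fell with guide 2 (-2.59, from 9.22 ± 1.04 to 1.52 ± 0.101, adjusted p = 2.46e-15) and rose in the libraries labelled guide 1 (3.16, to 82.6 ± 4.66, adjusted p = 2.03e-23), in the same order of groups as GSTP1 and the HEK293T list. The NRF2 target PTGR1, a prostaglandin reductase, fell in the libraries labelled guide 1 (-1.12, from 44.7 ± 2.42 to 20.5 ± 1.11, adjusted p = 3.69e-15).

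Among 12 genes of heme and iron handling, 3 rose (25%) with guide 2, led by the transferrin receptor TFRC (log2 fold change 1.26, from 221 ± 14.4 to 529 ± 9.77 TMM CPM, adjusted p = 1.38e-17). FTH1 was lower in the same libraries, as given above. In the libraries labelled guide 1, 1 rose (8.33%) and 3 fell (25%), and the largest fall at this level was biliverdin reductase BLVRB (-0.85, from 167 ± 4.03 to 92.4 ± 8.3, adjusted p = 3.13e-14).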

How the data were processed

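RNA-seq reads of 9 libraries were processed by the authors, who trimmed adapters (Trim Galore, cutadapt), checked quality (FastQC), aligned reads to Ensembl GRCh38 (STAR) and assigned them to genes (featureCounts). Versions, the strand setting and how multi-mapping reads were counted are not given in the sources used here. The deposited values are raw counts per gene and library, not normalized or pooled. The files hold 60675 genes, and 56558 (93.2%) received a gene symbol from the reference annotation of GRCh38. SOD2 was matched by position (at least 99% overlap on the same strand). There were 0 rows without a gene and 0 pairs of identical libraries.

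Counts were analysed in R 4.3.3 with edgeR 4.0.16: TMM factors, filterByExpr (minimum count 10, minimum total 15; 19278 genes left) and a robust quasi-likelihood F test with all 9 libraries in one model, 1 coefficient per group and no covariate. p-values were adjusted over all tested genes by the Benjamini-Hochberg method. A gene was called at an adjusted p under 0.05 and at least 1.5-fold. Means and SDs are of TMM CPM, and exon lengths are those of the files. The procedure was tested on simulated counts. Alternatives were DESeq2 1.42.0, edgeR with DESeq2 size factors or with library size alone, 2 other filters, 6 libraries only, a block for the replicate number, fits without each library, the adjusted p alone and pseudogene counts added.

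All 32 genes and METTL3 are named. From each further list, the genes that were called and had the largest rise or fall at a mean of at least 5 TMM CPM in the compared groups are named. Genes and lists were chosen with earlier results of these data known. The level of 1 further marker gene is not reported here.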

Additional observations from a re-analysis of the deposited data

Results flagged for a closer look

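In 14 of the 30 tested genes the guide 2 libraries and the libraries labelled guide 1 differed by the direct edgeR test (log2 difference, positive where guide 2 was higher). GSTP1 had the largest difference, -5.12, and GPX3 was also lower with guide 2, by -1.43. Among the enzymes of the thioredoxin system, PRDX1 differed by 1.64, SRXN1 by 1.27 and TXNRD1 by 0.70. Of the glutathione genes, GSR differed by 1.05, GSTM3 by 1.00, MGST1 by 0.99 and GPX1 by 0.76. NQO1 differed by 1.43, CAT by 1.35, PGD by 1.11, OSGIN1 by 0.75 and KEAP1 by 0.67. The adjusted p-values of these differences ranged up to 0.00104 (SRXN1), and 47.3% of all genes tested were called in this comparison. GPX3 and GSTP1 were called in opposite directions against shScramble by the groups, which share those control libraries. Groups of 3 libraries were not tested for single libraries that stand apart.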

How the results depend on the processing

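With the adjusted p under 0.05 alone, 11910 genes were called with guide 2 (5792 raised, 6118 lowered), 13190 in the libraries labelled guide 1 (6818 raised, 6370 lowered) and 14390 between the guides (6693 raised). The members called were then 23 (17 raised, 6 lowered), 23 (6 raised, 17 lowered) and 27 (21 raised, 6 lowered), since small changes pass without the fold limit. With library size alone, 5877 genes were called with guide 2, 1012 of them raised, and 5 members were called, 3 of them raised. GPX1, GSTM3, PGD and TKT were the members lost. That scaling moved the median of all genes from -0.04 to -0.19 with guide 2 and from -0.06 to -0.20 between the guides, and the raised share of all calls from 30.2% to 17.2% and from 40.4% to 31.3%. The cause was not tested. Counting only members that share under 10% of their exon bases with another gene was an alternative chosen after seeing the data. In the libraries labelled guide 1 it left 5 of 23 tested members called (21.74%), 3 of them lowered (13.04%). Over all 30 tested members these shares were 30% and 20%, beside 37.7% and 16.5% of all genes. The lowered share thus went from above that of all genes to below it. The called members left out were NQO1, OSGIN1, SRXN1 and SOD2. With each library left out in turn, members called ranged from 8 to 10 with guide 2 (6 to 8 raised, 2 to 3 lowered), from 8 to 11 in the libraries labelled guide 1 (2 to 4 raised, 6 to 8 lowered) and from 15 to 16 between the guides (12 to 13 raised, 2 to 3 lowered). All genes called ranged from 5314 to 5625, 7040 to 7269 and 9074 to 9362. METTL3 ranged from -0.98 to -0.92, -0.12 to -0.06 and -0.87 to -0.84. For pairing, the deviations of each library from its group mean, on the log scale, were correlated between groups. Same-numbered libraries gave between -0.098 and 0.053 and other-numbered ones between -0.053 and 0.107, so the numbers do not pair them. With the replicate block, 9, 9 and 14 members were called, as without it, and 5494, 7140 and 9027 genes. Over the 30 members and 3 comparisons, 1276 values kept their call, 59 became called and 12 were no longer called. No called value changed direction. Most of the 59 came from the adjusted p alone, which drops the fold limit and leaves the values unchanged. Depth limits GPX2, ABCC2 and ABCC3, which had at most 24 counts per library.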
